A study of Mus musculus with 20 samples.

Results

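The genes described here are 48 genes of the cell cycle, chosen by name for their roles: 19 in DNA replication, 25 in mitosis and 4 that govern the step from G1 into S phase. The choice was made with earlier results of these data known. A gene was measured where the array annotation ties at least 1 probe set to its symbol alone, and of several such probe sets the brightest over the 20 arrays stood for the gene. That left 47 of the 48, among 18193 genes measured in all: 19 replication, 24 mitosis and 4 G1/S genes. Ccnb1, which encodes cyclin B1, is not analysed here. Levels were compared between mice that have or lack Aire, the transcription factor through which medullary thymic epithelial cells express genes of other tissues, on 3 inbred backgrounds.

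Epithelial cells of the thymic medulla with high MHC class II were sorted by flow cytometry, as CD45-negative, G8.8-positive and Ly51-intermediate cells, from single thymi of male mice aged 3 to 4.5 weeks. The 20 mice formed 6 groups: Aire wild-type and Aire knockout mice of the B6 background (3 and 3), of the BALB background (4 and 4) and of the NOD background (3 and 3). The labels name neither the allele that makes the knockout nor whether the wild-type mice were littermates. Each mouse gave 1 expression array, whose intensities are given below as log2 values, so that a difference of 1 is a 2-fold change.

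Cells prepare for replication by loading a ring of MCM proteins onto origins with the help of Cdc6 and Cdt1, and genes for these steps are classically switched on by E2F factors near the start of S phase. Genes for chromosome segregation peak later, in G2 and mitosis, and many carry a CHR element and CCAAT boxes through which the DREAM complex, B-Myb, FoxM1 and NF-Y act. In the thymic medulla, dividing epithelial cells are known among the MHC class II high cells as well as their precursors, and Aire-positive cells are mostly regarded as having left the cycle. A change of a transcript in a sorted population can come from fewer dividing cells or from less RNA per cell, and these cannot be told apart here.

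Facts of the whole set of arrays bear on what follows. Median intensity per array ran from 86.3 to 90.9. The Aire probe set read higher in the knockout mice (0.74 ± 0.14 SE in log2, adjusted p = 0.00104). No source used here says where it lies relative to the altered stretch, so it does not check the genotype labels. Wild-type mouse 2 and knockout mice 2 and 3 of B6 stood apart, with log2 Gapdh 3' minus 5' control signals of 1.68 to 1.90 against 2.15 to 3.76 on the other 17 arrays. The highest of the 17 was B6 wild-type mouse 1, at 3.76, and the next was BALB wild-type mouse 4, at 3.04. B6 wild-type mouse 1 was kept where the 3 arrays were left out. Wild-type mouse 4 of BALB had the lowest levels of its group for many of the cycle genes, and an Aire level of 9.31 against 10.48 to 10.71 in its group mates. Counts of genes called are also given without the 3 B6 arrays and without BALB wild-type mouse 4. The labels' sample codes form 4 runs of close numbers, called code runs, and B6 wild-type mouse 1 has no code. Where a fit left out arrays, took code runs as a block or averaged probe sets, the share of all probe sets called is not given.

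Averaged over the 3 strains, 21 of the 47 genes fell in knockout mice and 0 rose (limma with Benjamini-Hochberg adjustment over all 45037 probe sets, threshold 0.05; 27 genes had an unadjusted p under 0.05). Over all probe sets 10.1% fell and 10.5% rose. The median difference was -0.42 over the 47 genes and 0.06 over all probe sets. Mitosis genes made up 13 of the 21, out of 24 measured, with a median of -0.51, and replication genes made up 8, out of 19, with a median of -0.16. None of the 4 G1/S genes passed (0 called, and 0 at an unadjusted p under 0.05), and their median was -0.10. All 21 genes that fell had a negative difference in B6, in BALB and in NOD. The call rests on the mean of these same 3 differences, so the shared sign is no separate check. The fit used here and below, with same-numbered BALB and NOD mice as pairs, was chosen after seeing the data. The labels do not say what the numbers mean. With same-numbered BALB and NOD mice as pairs, 30 genes fell and 0 rose (19 mitosis, 10 replication and 1 G1/S gene) against 12.5% of all probe sets that fell and 14.0% that rose, and without the 3 B6 arrays that stood apart 10 fell. That last fit leaves 1 B6 knockout mouse, which is assumed to vary like the other groups, and the class medians under it were -0.52 for mitosis and -0.19 for replication genes. The count ran from 14, without B6 wild-type mouse 3 or without NOD knockout mouse 2, to 27 without BALB wild-type mouse 4.

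**Figure D1:**
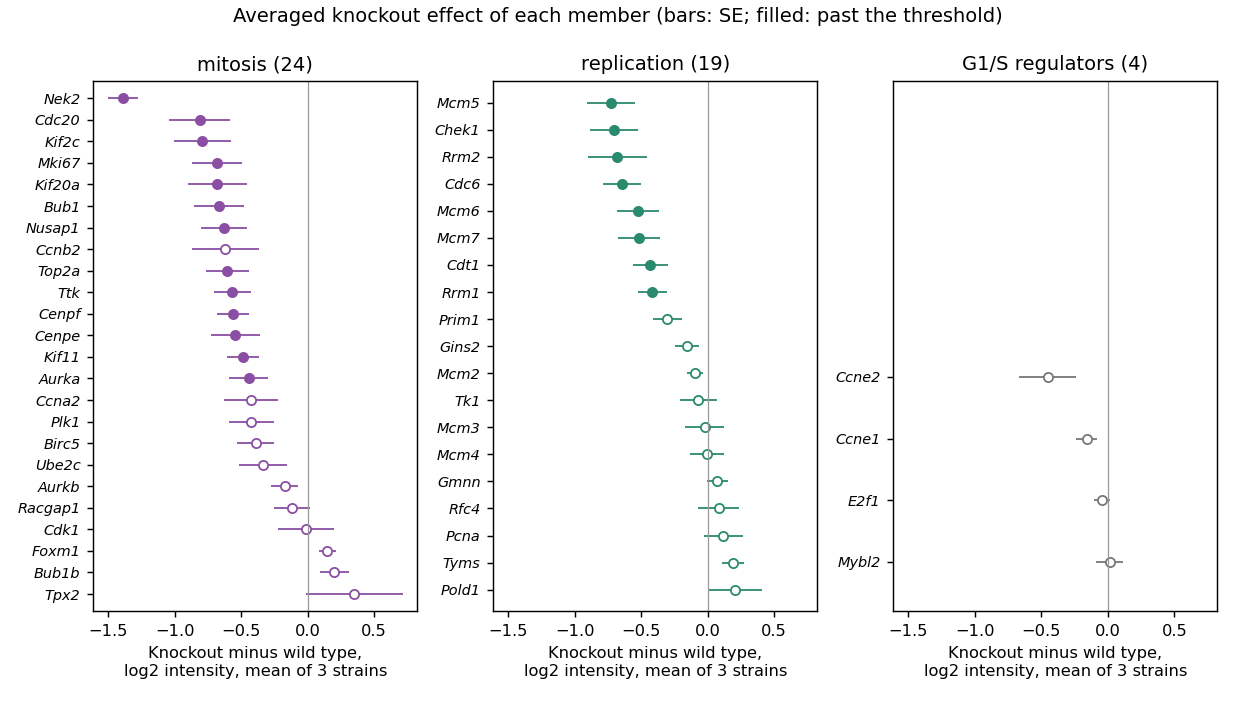
Knockout minus wild-type difference in log2 intensity, averaged over B6, BALB and NOD, for each of the 47 genes, with the standard error as a bar and filled symbols for genes past the threshold. Nek2 lies furthest to the left at -1.39, most mitosis genes lie left of 0, and the replication genes split between a lower group near -0.5 and a group near 0.

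The promoters of these genes show which motifs of the cell cycle the classes carry. RefSeq promoter windows on the GRCm38.p6 build, from 250 bases before to 50 after a gene's start, were found for 39 of the 48 genes, as 40 windows. 3 kinds of motif were searched on either strand: the CHR core, written TTTGAA, the CCAAT box, written as in its name, and E2F-type sites. The last were searched as TTGGCGC and also as TTCGCGC and further as GCGGGAA. E2F-type sites can overlap one another on opposite strands, and a CCAAT box that runs on into an E2F-type site counts under both.

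The stretches below are the 200 bases up to the start of 6 genes that fell, 5′ to 3′ on the gene's strand with motif letters in capitals. They were chosen, with values known, to set 3 mitosis genes (Nek2, Cdc20 and Top2a) beside 3 replication genes (Mcm5, Chek1 and Mcm6). Nek2 and Cdc20, and Mcm5 and Chek1, had the largest falls of their class among genes with a window. Top2a was then picked as the other fallen mitosis gene with most CHR and CCAAT matches in the stretch. Mcm6 was picked likewise for E2F-type and CCAAT matches. The 6 stretches thus do not stand for all genes that fell. Their positions are Nek2 chr1:191821273-191821472 on the plus strand, Cdc20 chr4:118437344-118437543 on the minus strand, Top2a chr11:99024190-99024389 on the minus strand, Mcm5 chr8:75109309-75109508 on the plus strand, Chek1 chr9:36726659-36726858 on the minus strand and Mcm6 chr1:128359706-128359905 on the minus strand.
Nek2: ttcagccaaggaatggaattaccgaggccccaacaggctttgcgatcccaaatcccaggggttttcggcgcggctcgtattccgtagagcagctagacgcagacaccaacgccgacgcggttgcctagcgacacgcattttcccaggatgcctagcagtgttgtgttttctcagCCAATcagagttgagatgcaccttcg
Cdc20: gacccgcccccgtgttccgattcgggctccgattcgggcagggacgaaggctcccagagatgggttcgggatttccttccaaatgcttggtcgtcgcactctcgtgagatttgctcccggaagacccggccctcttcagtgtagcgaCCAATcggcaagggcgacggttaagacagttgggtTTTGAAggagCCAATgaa
Top2a: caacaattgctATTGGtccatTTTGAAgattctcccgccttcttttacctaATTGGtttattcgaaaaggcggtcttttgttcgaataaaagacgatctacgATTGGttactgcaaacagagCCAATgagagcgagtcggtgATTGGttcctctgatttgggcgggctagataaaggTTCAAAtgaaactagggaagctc
Mcm5: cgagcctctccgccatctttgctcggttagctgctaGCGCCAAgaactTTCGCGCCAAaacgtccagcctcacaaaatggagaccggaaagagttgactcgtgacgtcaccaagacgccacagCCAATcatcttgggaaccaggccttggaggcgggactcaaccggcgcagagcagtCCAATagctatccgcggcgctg
Chek1: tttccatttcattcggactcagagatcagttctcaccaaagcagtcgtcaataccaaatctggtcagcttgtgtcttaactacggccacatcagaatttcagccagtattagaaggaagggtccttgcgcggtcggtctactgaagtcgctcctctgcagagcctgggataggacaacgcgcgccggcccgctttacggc
Mcm6: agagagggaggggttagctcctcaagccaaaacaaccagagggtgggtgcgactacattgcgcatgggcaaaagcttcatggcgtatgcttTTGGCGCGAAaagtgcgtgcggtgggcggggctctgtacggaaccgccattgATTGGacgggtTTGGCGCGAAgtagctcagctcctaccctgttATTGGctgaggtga

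With positions counted from the start of the gene, Cdc20 has a CHR core at -18 to -13, between CCAAT boxes at -53 to -49 and -8 to -4. Top2a has CHR cores at -179 to -174 and -23 to -18, and 5 CCAAT boxes in the stretch shown. Nek2, the gene that fell most, has a CCAAT box at -26 to -22 and no CHR core in the window. Mcm5 has 3 E2F-type matches between -164 and -143, some of them overlapping, and Mcm6 has 2 overlapping blocks, at -109 to -100 and -46 to -37. Chek1 has no match in the stretch shown, and its window holds GCGGGAA at 44 to 50 after the start.

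The classes differed in these letters as follows. The CHR core was in 14 of 20 mitosis windows (70.0%), in 1 of 17 replication windows (5.88%) and in 17.9% of all 32851 windows. E2F-type sites were in 3 of 20 mitosis windows (15.0%), in 12 of 17 replication windows (70.6%) and in 8.07% of all windows. CCAAT boxes were in 85.0% of mitosis windows, 58.8% of replication windows and 37.4% of all. Within the mitosis class the CHR core was in 8 of 12 windows of genes that fell (66.7%) and in 6 of 7 windows of genes that did not pass (85.7%). Within the replication class E2F-type sites were in 8 of 9 windows of genes that fell (88.9%; Mcm7 has 2 windows) and in 4 of 8 of the others. The 3 windows of G1/S genes (E2f1, Mybl2 and Ccne1) held 0 of the 3 motifs. A match is a description of the letters and was not tested as a binding site.

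**Figure D2:**
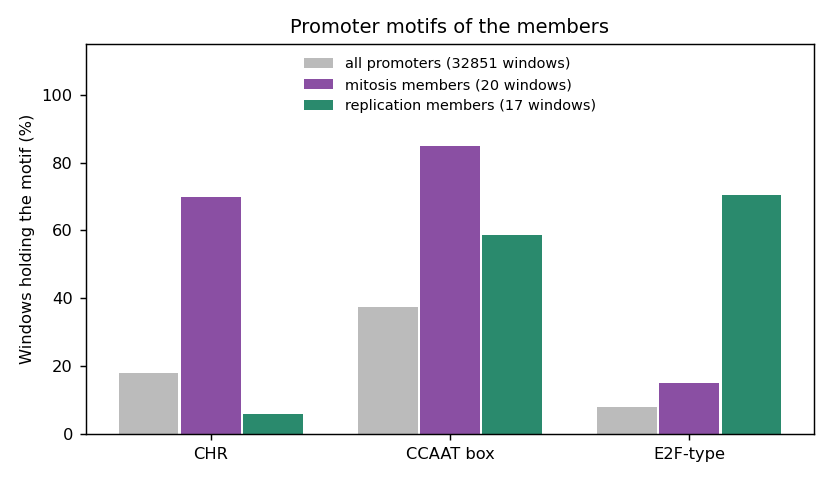
Share of promoter windows (percent, 250 bases before to 50 after the start) that hold each motif, for all windows in the RefSeq table, the 20 mitosis windows and the 17 replication windows. The CHR core stands at 70.0% in mitosis windows and E2F-type sites at 70.6% in replication windows.

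Among the mitotic kinases, Nek2, which acts in the separation of centrosomes, had the largest difference of the 47 genes. Its log2 level was 8.19, 8.39 and 7.99 in B6 wild-type mice and 6.80, 6.93 and 7.13 in B6 knockout mice. In BALB it was 8.97, 9.31, 9.42 and 9.07 with Aire and 7.23, 7.89, 7.68 and 7.50 without. In NOD it was 8.38, 8.80 and 8.11 with Aire and 7.42, 6.77 and 7.15 without. Every knockout mouse lay below every wild-type mouse of its strain in B6, BALB and NOD, and Nek2 was the only gene of the 47 with this pattern, which 3.17% of all probe sets show. The averaged difference was -1.39 ± 0.11 (SE), a 2.62-fold lower level (95% interval -1.62 to -1.16 in log2, adjusted p = 4.56e-08). A dimmer Nek2 probe set also fell (-0.69, adjusted p = 1.74e-06), while 2 others with mean log2 levels of 5.58 and 4.22 read 0.04 and 0.03.

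Aurka, the kinase of spindle poles, fell by 0.44 ± 0.14 (adjusted p = 0.0372), and it passed in 7 of the 20 fits that each left out 1 mouse. Plk1, the polo kinase, had a difference of -0.42 (adjusted p = 0.0854). Aurkb and its partner survivin, encoded by Birc5, make the chromosomal passenger complex and had differences of -0.17 (adjusted p = 0.233) and -0.39 (adjusted p = 0.0541). With same-numbered BALB and NOD mice as pairs, these 3 genes that had missed the threshold passed it, Plk1 at an adjusted p of 0.00702, Birc5 at 0.000346 and Aurkb at 0.0424.

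Cdc20, which activates the anaphase-promoting complex, fell by 0.81 ± 0.23 (1.76-fold, adjusted p = 0.0173). Its levels were 9.003, 8.44 and 9.17 in B6 wild-type and 8.12, 7.65 and 8.07 in B6 knockout mice. BALB mice read 9.47, 9.61, 10.23 and 8.48 with Aire and 8.75, 9.10, 8.99 and 7.36 without. NOD mice read 10.16, 9.65 and 9.89 with Aire and 9.44, 8.81 and 9.60 without. The genotypes did not overlap in B6 or NOD, and in BALB wild-type mouse 4 reached into the knockout range. Ube2c, which charges the same complex with ubiquitin, had a difference of -0.33 (adjusted p = 0.200).

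Mki67, which coats mitotic chromosomes and marks cycling cells, fell by 0.68 ± 0.19 (1.61-fold, adjusted p = 0.0141). It read 10.14, 10.28 and 10.14 in B6 wild-type mice and 9.32, 9.51 and 9.72 in B6 knockout mice. In BALB the levels were 10.25, 10.52, 10.78 and 9.08 with Aire and 9.42, 9.99, 9.94 and 8.93 without. In NOD they were 10.65, 10.60 and 10.18 with Aire and 10.03, 9.40 and 9.60 without. As for Cdc20, B6 and NOD genotypes did not overlap, and BALB wild-type mouse 4 lay among the knockout mice. Top2a, the topoisomerase that untangles sister chromatids, fell by 0.61 ± 0.16 (adjusted p = 0.0118). Another Top2a probe set with a mean log2 level of 4.83 against 9.13 rose instead (0.23, adjusted p = 0.0279).

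The spindle checkpoint genes did not move as 1 group. Bub1 and Ttk (Mps1), kinases that hold anaphase until chromosomes attach, fell by 0.67 ± 0.19 (adjusted p = 0.0161) and 0.57 ± 0.14 (adjusted p = 0.00703). Bub1b, which encodes the checkpoint protein BubR1, had a difference of 0.20 (95% interval -0.03 to 0.43, adjusted p = 0.208), with 7.34, 7.94 and 7.96 in B6 knockout mice against 7.04, 7.54 and 6.94 in B6 wild-type mice. A dimmer Bub1b probe set rose (0.32, adjusted p = 0.0348).

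All 5 kinetochore and motor genes fell. Kif2c, a depolymeriser of microtubules at centromeres, fell by 0.79 ± 0.21, and Kif20a, a kinesin of the central spindle, by 0.68 ± 0.22. Cenpf and Cenpe, of the outer kinetochore, fell by 0.56 ± 0.12 and 0.54 ± 0.18, and Kif11, the kinesin that pushes spindle poles apart, by 0.48 ± 0.12. Their adjusted p-values ran from 0.00234 for Cenpf to 0.0434 for Cenpe. Cenpe passed in 5 and Kif20a in 9 of the 20 fits that left out 1 mouse, while the other 3 passed in all 20. Dimmer probe sets of Kif2c (0.18, -0.10 and 0.07), Cenpf (0.04 and 0.04) and Cenpe (-0.60, adjusted p = 0.226) did not pass. Of the dimmer Kif11 probe sets, 1 fell (-0.92, adjusted p = 0.00164) and 1 read 0.06. Among genes of the spindle and cytokinesis, the microtubule bundler Nusap1 fell by 0.63 ± 0.17 (adjusted p = 0.0147). Racgap1, of the central spindle, had a difference of -0.12, and Tpx2, which activates Aurora A, had 0.35 with a 95% interval from -0.41 to 1.11. Tpx2 had the widest spread within groups of the 47 genes (SD 0.90), with 10.11, 8.41 and 7.999 in B6 wild-type mice alone.

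The cyclin-dependent kinase that drives mitosis did not pass. Cdk1 had a difference of -0.01 (95% interval -0.46 to 0.43), with 9.57, 9.88 and 9.47 in B6 wild-type and 9.69, 10.04 and 10.12 in B6 knockout mice. Its cyclin partners Ccnb2 and Ccna2 had differences of -0.62 (adjusted p = 0.0916) and -0.43 (adjusted p = 0.150), and with same-numbered BALB and NOD mice as pairs they passed, at adjusted p-values of 0.0135 and 0.00279. Foxm1, the transcription factor of G2 genes, had a small positive difference of 0.15 ± 0.06 (adjusted p = 0.119) and was the only gene higher in the knockout mouse of all 7 same-numbered BALB and NOD pairs. By that count 17 of 24 mitosis genes and 6 of 19 replication genes were lower in the knockout mouse of all 7 pairs, against 9.49% of all probe sets that were lower and 10.9% that were higher in all 7.

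**Figure D3:**
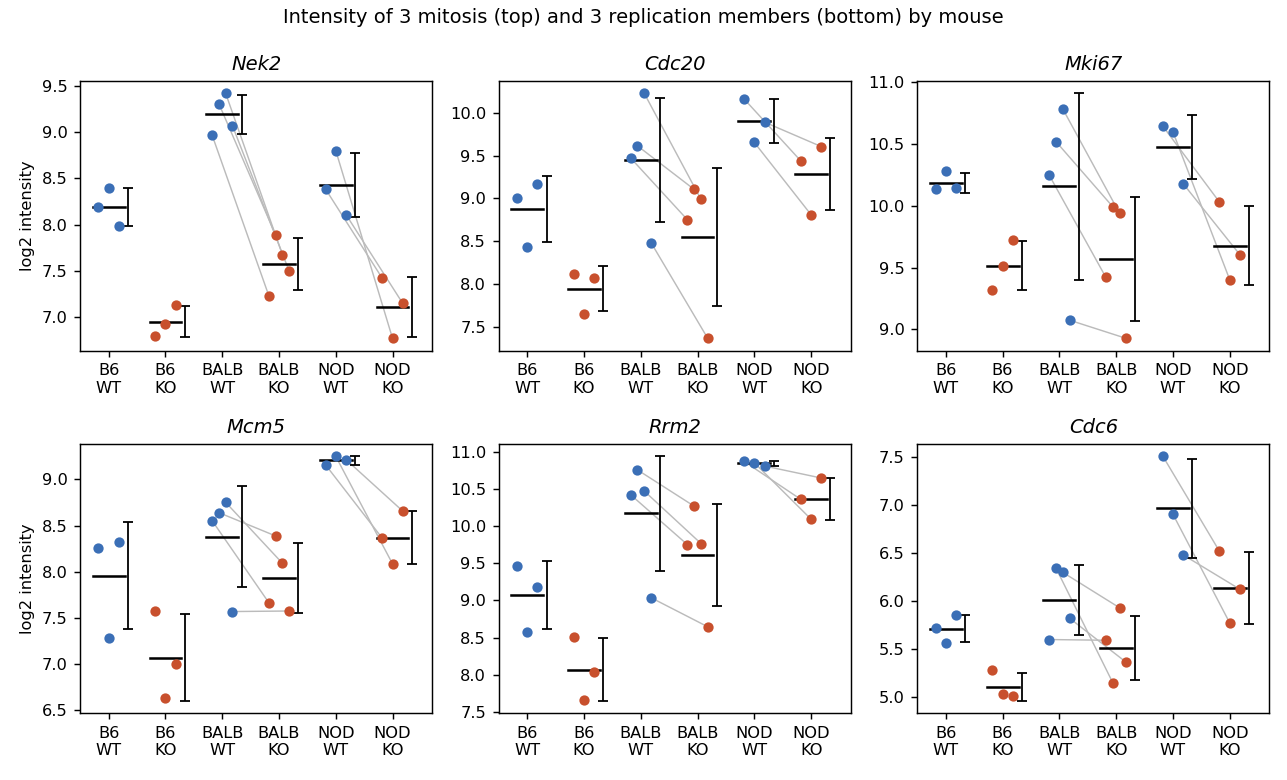
Log2 intensity of Nek2, Cdc20 and Mki67 (mitosis) and of Mcm5, Rrm2 and Cdc6 (replication) in each mouse, with group means as lines, standard deviations as bars and grey lines that join same-numbered BALB and NOD mice. Knockout mice lie below wild-type mice without overlap in every strain for Nek2. Within each genotype, NOD mice lie above B6 mice for the 3 replication genes.

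Of the 19 replication genes 8 fell and 11 did not pass, and 14 had a negative difference. Of the 6 helicase genes, Mcm5 fell by 0.73 ± 0.18 (adjusted p = 0.00700), Mcm6 by 0.52 ± 0.16 (adjusted p = 0.0271) and Mcm7 by 0.52 ± 0.16 (adjusted p = 0.0265). The other 3 subunits of the same ring did not pass, with Mcm2 at -0.09 (95% interval -0.22 to 0.03), Mcm3 at -0.02 (-0.33 to 0.29) and Mcm4 at -0.01 (-0.28 to 0.26). Mcm5 read 8.26, 7.28 and 8.32 in B6 wild-type and 7.57, 6.63 and 6.999 in B6 knockout mice. In NOD it read 9.16, 9.25 and 9.22 with Aire and 8.36, 8.08 and 8.66 without, with no overlap. In BALB it read 8.55, 8.64, 8.75 and 7.57 with Aire and 7.66, 8.39, 8.09 and 7.57 without, and wild-type mouse 4 was again low. Mcm6 lost its call without B6 wild-type mouse 3, NOD wild-type mouse 3 or NOD knockout mouse 1 or 2, and Mcm7 without B6 wild-type mouse 3, NOD wild-type mouse 1 or NOD knockout mouse 2. The split of the ring rests on the brightest probe sets. Dimmer ones of Mcm5 (-0.29 and 0.23), Mcm6 (-0.31 and -0.03) and Mcm7 (-0.27, -0.23 and -0.32) did not pass. Nor did those of Mcm2 (-0.04), Mcm3 (-0.27, 0.06, -0.14 and 0.13) and Mcm4 (0.01).

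Of the licensing genes, Cdc6 and Cdt1, which load the helicase, fell by 0.65 ± 0.14 (adjusted p = 0.00307) and 0.43 ± 0.13 (adjusted p = 0.0253). Cdt1 lost its call without B6 wild-type mouse 3, B6 knockout mouse 2 or NOD knockout mouse 1 or 2. Gmnn, which encodes geminin, the inhibitor of Cdt1, had a difference of 0.07 (95% interval -0.10 to 0.24), and Gins2, part of the active helicase, had -0.16 (adjusted p = 0.242). Cdc6 was a dim probe set, at 5.72, 5.57 and 5.86 in B6 wild-type and 5.28, 5.03 and 5.01 in B6 knockout mice. Its genotypes did not overlap in B6 and overlapped in BALB and NOD.

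For the supply of nucleotides, both subunits of ribonucleotide reductase fell, Rrm2 by 0.68 ± 0.22 (1.60-fold, adjusted p = 0.0366) and Rrm1 by 0.42 ± 0.11 (adjusted p = 0.0107). Rrm2 read 9.46, 8.58 and 9.17 in B6 wild-type mice and 8.51, 7.67 and 8.03 in B6 knockout mice, without overlap. In BALB it was 10.42, 10.75, 10.47 and 9.04 with Aire and 9.75, 10.27, 9.76 and 8.65 without. In NOD it was 10.87, 10.85 and 10.81 with Aire and 10.36, 10.09 and 10.64 without, and here too the genotypes did not overlap. Rrm2 passed in 8 of the 20 fits that left out 1 mouse. Tyms and Tk1, which make thymidine nucleotides, had differences of 0.19 (adjusted p = 0.102) and -0.07 (adjusted p = 0.739). Both were dim, with mean log2 levels of 4.69 and 6.33.

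Pcna, Rfc4 and Pold1 did not pass. Pcna, the sliding clamp, had a difference of 0.12 (95% interval -0.19 to 0.43), its loader subunit Rfc4 had 0.08 (-0.24 to 0.40), and the polymerase subunit Pold1 had 0.20 (-0.23 to 0.63). The primase gene Prim1 had -0.31 (adjusted p = 0.0543) and passed with same-numbered mice as pairs (adjusted p = 0.00500). Chek1, the kinase of the replication checkpoint, fell by 0.70 ± 0.18 (1.63-fold, adjusted p = 0.00998). It read 8.24, 7.36 and 8.04 in B6 wild-type and 7.57, 6.32 and 6.78 in B6 knockout mice, which overlap, and 8.64, 8.32 and 8.31 against 7.92, 7.56 and 7.92 in NOD, which do not.

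The 4 G1/S genes had differences of -0.45 for Ccne2 (adjusted p = 0.148), -0.16 for Ccne1 (adjusted p = 0.169), -0.04 for E2f1 and 0.01 for Mybl2. Ccne1 and Ccne2 encode the E cyclins that start S phase, and E2f1 and Mybl2 encode E2F1 and B-Myb. Only Ccne2 passed with same-numbered mice as pairs (adjusted p = 0.0296). E2f1 had a within-group SD of 0.12 and a 95% interval from -0.17 to 0.09.

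Other probe sets bear on how far these values hold. Of the 47 genes 35 had at least 1 more probe set, 65 in all. Of 36 such probe sets of the 21 genes that fell, 5 fell too, 1 rose and 30 did not pass, 14 of these with a negative difference. Over all probe sets 10.1% fell and 10.5% rose, so the 5 of 36 lie near the share of any probe set. The 5 that fell belonged to Nek2, Cdc20, Kif11, Ttk and Chek1. For 10 of the 47 genes the probe set used ends in x_at, the maker's mark for sets with probes that may also bind other sequences. Of these 10, Cdc20, Kif2c, Mcm5, Mcm6 and Rrm2 fell, and the share of their signal from other sequences was not tested. With the mean of all probe sets of a gene in place of the brightest, 15 genes fell and the class medians were -0.34 for mitosis and -0.08 for replication. Of 29 probe sets of the genes that did not pass, 0 fell and 1 rose.

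A class score, the mean over a class of log2 levels centred on each gene's own mean, sums the members up for each mouse and was not tested. The mitosis score was lower in the knockout mouse of all 7 same-numbered BALB and NOD pairs. The replication score was lower in 6 of the 7, and in BALB pair 4 it went from -0.51 with Aire to -0.44 without. In B6 the mitosis scores were 0.07, 0.22 and 0.03 with Aire and -0.34, -0.29 and -0.13 without. In BALB they were 0.34, 0.42, 0.43 and -0.57 with Aire and -0.35, -0.01, -0.09 and -0.85 without, so wild-type mouse 4 lay below 3 of the 4 knockout mice. In NOD they were 0.47, 0.50 and 0.32 with Aire and 0.03, -0.29 and 0.08 without.

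The replication scores were -0.12, -0.21 and 0.00 in B6 wild-type and -0.30, -0.40 and -0.34 in B6 knockout mice. BALB mice read 0.09, 0.32, 0.23 and -0.51 with Aire and -0.13, 0.14, -0.08 and -0.44 without, and these overlap. NOD mice read 0.53, 0.44 and 0.41 with Aire and 0.16, -0.02 and 0.22 without. The mitosis score minus the replication score was -0.05 to 0.25 in BALB wild-type and -0.40 to -0.01 in BALB knockout mice, and -0.09 to 0.07 against -0.27 to -0.13 in NOD. In B6 it was 0.02 to 0.43 against -0.05 to 0.21. The knockout mice thus lay wholly below the wild-type mice on this contrast in NOD, and the genotypes overlapped in BALB and B6. By pairs it was lower in the knockout mouse of all 4 BALB and all 3 NOD pairs. Whether the classes differ in their knockout effect was not tested.

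**Figure D4:**
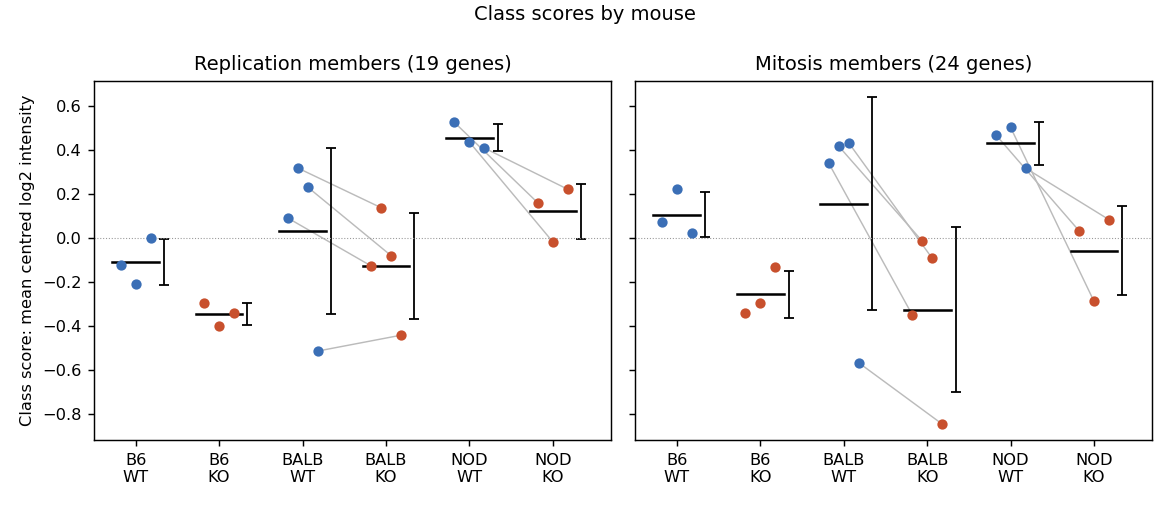
Class score of each mouse (mean centred log2 intensity over 19 replication and 24 mitosis genes) in the 6 groups, with group means as lines, standard deviations as bars and grey lines that join same-numbered BALB and NOD mice. BALB wild-type mouse 4 stands alone at -0.57 for mitosis, and within each genotype NOD has the highest mean for both classes.

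Within code runs the direction was the same. Knockout minus wild-type medians of the mitosis genes were -0.58 and -0.34 for BALB in code runs 1 and 2, -0.47 and -0.59 for NOD in runs 2 and 4, and -0.34 for B6 in run 3. For the replication genes they were -0.17 and -0.17, -0.38 and -0.33, and -0.20 in the same order. The medians over all probe sets in these subsets were 0.02 to 0.08. With the code run as a block 21 genes fell and 0 rose.

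Within single strains few of these genes passed. In B6, Nek2 (-1.24, adjusted p = 0.000467) and Ttk (-0.86, adjusted p = 0.0413) fell and 0 rose, against 5.54% of all probe sets that fell and 3.08% that rose. Without the 3 B6 arrays that stood apart, which leaves 2 wild-type mice and 1 knockout mouse, Nek2 (-1.30) passed and Ttk (-0.76, adjusted p = 0.455) did not. In BALB, Nek2 (-1.62, adjusted p = 7.06e-06) and Cenpf (-0.76, adjusted p = 0.0179) fell and 0 rose, against 4.26% and 2.57%. In NOD, Nek2 (-1.32, adjusted p = 0.000456) alone fell and 0 rose, against 2.81% and 1.42%. The medians of all 47 genes were -0.32 in B6, -0.38 in BALB and -0.46 in NOD. A negative difference in each of the 3 strains was seen for 31 of the 47 genes, 19 of them mitosis and 10 replication genes. The share of all probe sets with this pattern was not computed, so the count has no background.

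These counts moved with the treatment of pairs and with single mice. With same-numbered BALB and NOD mice as pairs, 11 genes fell and 1 (Bub1b) rose in B6, 13 fell in BALB and 9 fell in NOD, against 7.38%, 5.84% and 4.13% of all probe sets that fell and 4.93%, 4.48% and 2.47% that rose. Mki67, Nek2 and Nusap1 were called in each strain under that fit. Without BALB wild-type mouse 4, 15 genes fell in BALB, and without any of BALB wild-type mice 1, 2 and 3 or knockout mice 1 and 4 only 1 did. In B6 the count was 6 without wild-type mouse 2 (4 lower, 2 higher), 5 without knockout mouse 1 (4 lower, 1 higher) and 4 without BALB wild-type mouse 4. It was 1 without B6 wild-type mouse 1 or 3, B6 knockout mouse 2 or 3, BALB knockout mouse 1 or 3, or mouse 2 of NOD of either genotype. In NOD it was 2 without wild-type mouse 3.

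Counted by overlap alone, all knockout mice lay below all wild-type mice for 17 genes in B6 (12 mitosis, 5 replication), 2 in BALB (Nek2 and Ccne1) and 28 in NOD (18 mitosis, 9 replication and 1 G1/S). Over all probe sets the shares were 11.0%, 5.60% and 10.0%. The BALB count includes wild-type mouse 4, and without it 20 genes had this pattern (15 mitosis, 4 replication and 1 G1/S) against 8.10% of all probe sets. Without the 3 B6 arrays that stood apart, 2 wild-type mice against 1 in B6 gave 32 genes, against 28.7%. All knockout mice lay above all wild-type mice for Foxm1 in B6 and Pold1 in NOD and for 0 genes in BALB. The share of all probe sets in this upward direction was not computed. The F test of strain differences in the knockout effect called 0 of the 47 genes (1 at an unadjusted p under 0.05, lowest adjusted p 0.852), against 0.435% of all probe sets. With same-numbered BALB and NOD mice as pairs 0 of the 47 passed (4 at an unadjusted p under 0.05, lowest adjusted p 0.270), against 0.822%.

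Strain also separated these genes. Among wild-type mice 6 genes were higher in NOD than in B6 and 0 were lower, against 2.53% of all probe sets that were higher and 4.51% that were lower. All 6 were replication genes: Mcm2 (0.60), Mcm4 (0.98), Mcm5 (1.25), Rrm2 (1.77), Cdc6 (1.25) and Cdt1 (0.80), with adjusted p-values from 0.00170 for Mcm2 to 0.0482 for Cdt1. None of the 24 mitosis genes passed (0 called, 6 at an unadjusted p under 0.05). The medians were 0.50 for replication and 0.32 for mitosis genes, against 0.02 for all probe sets. Rrm2 read 9.46, 8.58 and 9.17 in B6 and 10.87, 10.85 and 10.81 in NOD wild-type mice, and another Rrm2 probe set was also higher in NOD (2.74, adjusted p = 0.00109). Cdc6 read 5.72, 5.57 and 5.86 against 7.51, 6.90 and 6.48, and Mcm2 8.23, 8.11 and 8.10 against 8.69, 8.75 and 8.82, with no overlap for any of the 3.

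The same comparison in knockout mice was made between other mice. It is not independent, since the fit shares 1 estimate of the spread and same-numbered NOD mice deviated together. There 7 genes were higher in NOD than in B6 and 2 lower, against 4.18% and 5.84% of all probe sets. All 6 replication genes named above were among the 7, with Mcm2 at 0.46, Mcm4 at 0.94, Mcm5 at 1.30, Rrm2 at 2.29, Cdc6 at 1.03 and Cdt1 at 0.82, and the other was Cdc20 (1.34, adjusted p = 0.0493). Gmnn (-0.84, adjusted p = 0.000974) and Bub1b (-0.77, adjusted p = 0.0190) were lower. Gmnn read 8.78, 8.91 and 9.06 in B6 and 8.09, 7.95 and 8.20 in NOD knockout mice. NOD means lay above B6 means in both genotypes for 36 of the 47 genes, 16 of 19 replication and 16 of 24 mitosis genes. No share of all probe sets was computed for this count of means. All NOD mice lay above all B6 mice for 19 genes among wild-type mice (10 replication, 8 mitosis and 1 G1/S gene) and for 18 among knockout mice (11, 6 and 1), against 12.7% and 14.3% of all probe sets.

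**Figure D5:**
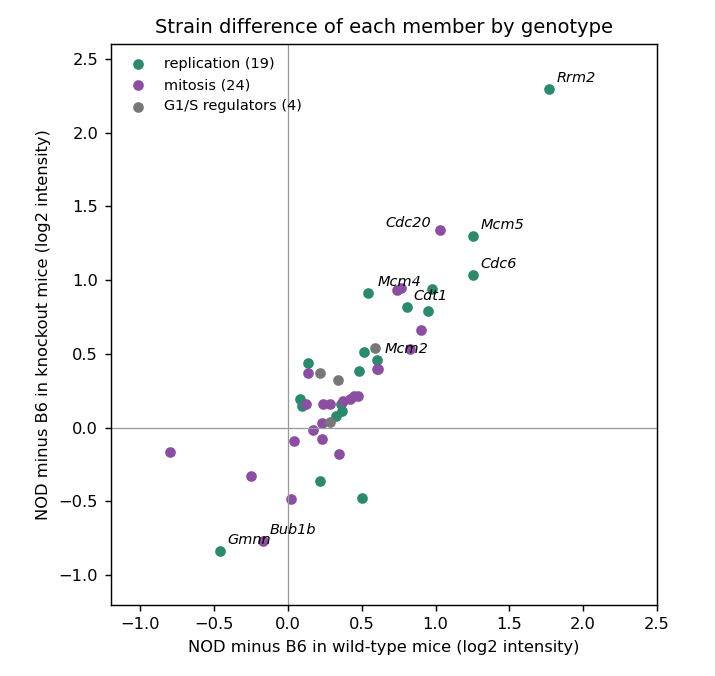
NOD minus B6 difference in log2 intensity of each of the 47 genes in wild-type mice (horizontal) and in knockout mice (vertical), which are separate animals, coloured by class. Rrm2 lies at the top right (1.77 and 2.29), the other replication genes called in both genotypes lie between 0.46 and 1.30 on both axes, and Gmnn lies at the lower left.

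These strain differences have limits that the arrays impose. B6 and NOD wild-type mice share no code run, so strain and run cannot be told apart there, and with the code run as a block 0 genes passed among wild-type and 1 among knockout mice. In code run 2, NOD knockout mouse 1 minus B6 knockout mouse 1 had medians of 0.37 for replication and 0.48 for mitosis genes, over 1 mouse each. Without the 3 B6 arrays that stood apart, 3 genes were higher in NOD among wild-type mice (Mcm2 0.59, Mcm4 0.71 and Cdc6 1.18), and Mcm5 (0.92), Rrm2 (1.52) and Cdt1 (0.60) did not pass. Among knockout mice this sets NOD against 1 B6 mouse, a fit that borrows its spread from the other groups. There 0 genes passed, with Rrm2 at 1.85, Mcm5 at 0.80, Mcm4 at 0.45, Mcm2 at 0.31 and Gmnn at -0.70. Among wild-type mice the count was 2 without B6 mouse 2, 3 without NOD mouse 3 and 11 (10 higher, 1 lower) without BALB mouse 4. Among knockout mice it was 2 (1 higher, 1 lower) without B6 mouse 2 or 3 and 3 (2 higher, 1 lower) without NOD mouse 3. Summed intensity of 12 dendritic cell and macrophage markers was 11741 and 20074 in NOD wild-type mice 2 and 3 against 5012 in mouse 1 and 6511 to 9988 in B6 wild-type mice. The replication scores of NOD wild-type mice 1, 2 and 3 were 0.53, 0.44 and 0.41. The part of dendritic cells and macrophages in the strain differences was not tested.

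Among wild-type mice, the BALB mean lay between the B6 and NOD means for Mcm2, Mcm4, Mcm5, Rrm2, Cdc6 and Cdt1. It lay below both for Mcm6 and above both for Nek2. Against BALB wild-type mice, NOD wild-type mice were higher for Mcm6 (1.23), Cdc6 (0.95), Mcm4 (0.75) and Mcm2 (0.42) and lower for Nek2 (-0.76, adjusted p = 0.0207), while 2.48% of all probe sets were higher and 3.66% lower. Nek2 was the only gene that differed between BALB and B6 wild-type mice (0.998 higher in BALB, adjusted p = 0.00315), against 2.57% of probe sets that were higher and 3.53% that were lower. BALB and B6 wild-type mice share no code run either, so strain and run cannot be told apart in that comparison. In knockout mice Nek2 was also higher in BALB than in B6 (0.62, adjusted p = 0.0399), together with Rrm2 (1.53) and Cdt1 (0.86), and Bub1b (-0.82) and Kif20a (-1.29) were lower, against 5.51% higher and 6.66% lower. NOD knockout mice had more Mcm6 (1.12) and less Gmnn (-0.64) than BALB knockout mice, against 3.80% and 4.99%. With the code run as a block, BALB and B6 had 0 of the 47 genes called in either genotype, and 4 genes were higher in NOD than in BALB among wild-type and 5 among knockout mice.

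All NOD wild-type mice lay above all BALB wild-type mice for 10 genes (7 replication and 3 mitosis genes), against 8.32% of all probe sets. The NOD minus BALB counts also turned on single mice. Among wild-type mice they were 2 without BALB mouse 1 or 4, or without NOD mouse 1, 2 or 3, and 3 without BALB mouse 2. Among knockout mice they were 4 without BALB wild-type mouse 4 and 1 without NOD mouse 3. For BALB minus B6 the wild-type count was 4 without BALB mouse 4. The knockout count was 9 without B6 mouse 1, 0 without B6 mouse 2 or 3, and 3 without BALB mouse 2 or 4.

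Further genes of the same steps were listed by role, also with earlier results of these data known, so they are no independent check. Their counts are to be read against the 10.1% of all probe sets that fell and the 10.5% that rose. Of 38 other replication genes 11 fell and 0 rose in knockout mice (median -0.20), among them Dtl (-0.83), which marks Cdt1 for destruction, Lig1 (-0.55), which joins Okazaki fragments, Rpa1 (-0.55), which coats single-stranded DNA, and Cdc7 (-0.52), which fires origins. Of 60 other mitosis genes 17 fell and 0 rose (median -0.26), led by Anln (-0.86), which shapes the cleavage furrow, Cdca8 (-0.78), of the chromosomal passenger complex, Melk (-0.73) and Nuf2 (-0.69), of the kinetochore. Of 39 genes of G1 control and exit from the cycle 11 fell and 3 rose (median -0.08). The largest falls there were E2f7 (-1.61), Cdkn1c (-1.38) and E2f8 (-0.75), which encode a repressor E2F, the inhibitor p57 and another repressor E2F, while Ccng2 rose (0.70). In NOD against B6 wild-type mice 6 of the 38 other replication genes were higher and 1 lower, and 0 of the 60 other mitosis genes passed, against 2.53% of all probe sets higher and 4.51% lower. In knockout mice 2 other replication genes were higher and 1 lower, and 6 other mitosis genes were higher and 1 lower, against 4.18% and 5.84%.

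Markers of other cells and states moved beside these genes, and their part in the results was not tested. Their counts stand against the same 10.1% of all probe sets that fell and 10.5% that rose. Among 12 thymocyte markers 2 fell in knockout mice (Cd3g -0.92, Dntt -0.67) and 0 rose. Their summed intensity was 1705 to 1920 in B6 wild-type and 1458 to 1629 in B6 knockout mice, 1620 to 1969 and 1408 to 1729 in BALB, and 1652 to 3623 and 1339 to 2518 in NOD. It was thus lower without overlap in B6 knockout mice, and in BALB and NOD, where the groups overlapped, it was lower in the knockout mouse of all 7 same-numbered pairs. Without the 3 B6 arrays that stood apart, the sums in B6 were 1920 and 1765 against 1560 in 1 knockout mouse. Of 6 markers of immature medullary epithelium 4 fell (Krt15 -1.01, Krt5 -0.69, Pdpn -0.48, Krt14 -0.44) and Itga6 rose (0.29). Their sums were lower in the knockout mouse of all 7 BALB and NOD pairs, while the groups overlapped in each strain, at 3914 to 6077 and 4013 to 6053 in B6, 5155 to 6845 and 4223 to 5673 in BALB, and 4400 to 5595 and 4128 to 4853 in NOD.

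The other lists hold markers of further cell types and of stress. Counted as lower and higher in knockout mice, mature medullary epithelium had 0 and 4 of 15, cortical epithelium 1 and 2 of 9, B cells 0 and 2 of 6, and dendritic cells and macrophages 1 and 1 of 12. Fibroblasts had 4 and 3 of 8, endothelium 2 and 1 of 8, red blood cells 1 and 0 of 3, and dissociation stress 1 and 0 of 14. In the 7 BALB and NOD pairs, knockout sums were higher in 7 for B cells and 6 for fibroblasts. They were lower in 6 for endothelium and stress, 4 for dendritic cells and macrophages, and 3 for cortical epithelium and red blood cells. B cell sums in NOD were 1790 to 1978 and 2479 to 2851, and fibroblast sums in BALB 1619 to 1875 and 3189 to 3663. The summed levels of mature medullary markers were higher in the knockout mouse of all 7 BALB and NOD pairs. They ran from 48461 to 54360 in BALB wild-type and 53414 to 58917 in BALB knockout mice, and from 50972 to 55945 and 58574 to 62188 in NOD, without overlap. In B6 they were 57513 to 76249 and 61884 to 81527. Aire and Cd80 (0.85) were among the 4 that rose. No probe set reads 0 on this scale, so no marker can be called absent.

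Cycle genes varied more between mice of a group than most probe sets did. The median within-group SD was 0.35 over the 47 genes, 0.42 for mitosis and 0.34 for replication genes, against 0.20 over all probe sets and 0.21 over the probe sets at or above the dimmest of the 47. Mcm2 varied least (SD 0.12), E2f1 (0.12) and Foxm1 (0.13) came next, and Tpx2 (0.90), Ccnb2 (0.62) and Cdc20 (0.56) varied most. Ccnb2 shows what this means for the test, since its difference of -0.62 is as large as that of Nusap1 at -0.63, yet its standard error of 0.25 leaves it short of the threshold.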

How the data were processed

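RNA from sorted cells of 20 single thymi was isolated with Trizol and amplified in successive rounds before biotin labelling, per the labels' protocols, which tends to enrich 3' ends. The deposited values are linear intensities, 1 per probe set and array, made by the authors with RMA per the submitters' processing notes. RMA's version, and which arrays were normalized together, are unstated in the labels, and the linear scale was read from the values (6.55 to 18395). Array intensities carry no read depth, so the number of mice limits the precision.

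Groups were taken from sample titles. Of 45101 probe sets 64 controls were left out, and 45037 were tested on the log2 scale with limma 3.58.1 in R 4.3.3. The model held the 6 group means (14 residual degrees of freedom, lmFit and eBayes), with Benjamini-Hochberg adjustment over all probe sets. The annotation gave 1 symbol for 34945 of these, several for 932 and none for 9160. The code, tested on simulated data for the averaged knockout effect over 45037 probe sets, recovered 59% of 100 changes of 0.5 and 93% of 100 changes of 1 in log2. Those 200 changes lay on probe sets drawn at random, with independent noise between mice. The rates check the code and do not give the power for the cycle genes, which varied more between mice.

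The genes and lists were chosen with earlier results of these data known, all 48 genes are accounted for, and from each further pathway list up to 4 called genes of largest difference are named. Same-numbered mice correlated in their deviations from group means above 0.1 in all 4 BALB pairs (r 0.46 to 0.66) and all 3 NOD pairs (0.31 to 0.67), and in B6 pair 3 they did not (-0.13). Differently numbered BALB mice of the same code run also exceeded 0.1, at r 0.11 to 0.26. The limit thus does not tell pair from code run there, and the labels do not say what the numbers mean. From the same-numbered correlations the numbers were taken as pairs in BALB and NOD. That fit was chosen after seeing the data, as were the counts of non-overlapping groups with mice left out. Alternatives covered scaling, an offset, dim probe sets, probe set choice, variance trend, array weights, blocks, a covariate, the arrays fitted and each mouse left out. Promoters are RefSeq's on GRCm38.p6.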

Additional observations from a re-analysis of the deposited data

Results flagged for a closer look

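Among 98 groups of 4 BALB mice tested (each gene and class score, in wild-type and in knockout mice), 5 held a mouse far from the other 3 by Dixon's test, and chance gives about 1 in 20. Wild-type mouse 4 of BALB was the mouse in 4 of the 5. It had a Ccnb2 level of 6.46 against 8.10 to 8.39 in the others, a Ube2c level of 6.56 against 7.83 to 8.004, an Mcm5 level of 7.57 against 8.55 to 8.75, and a mitosis score of -0.57 against 0.34 to 0.43. In BALB knockout mice, Foxm1 was low in mouse 2, at 7.51 against 7.84 to 7.89. Same-numbered BALB knockout mouse 4 had the lowest mitosis score of its group too, at -0.85.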

How the results depend on the processing

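No called difference of the named genes changed its direction under any alternative run; of the checks of single genes 543 kept their call and 130 fell short of the threshold. The counts below are of the 47 genes, in either direction. Shares of all probe sets called also move, from 10.1% lower in the main averaged fit to 12.5% with BALB and NOD pairs. They are not given for the other fits, so these counts have no background to be read against.

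For the averaged effect, 34 were called (31 lower, 3 higher) with a replicate block in all 3 strains, B6 included, and 10 without the 3 B6 arrays that stood apart. That fit leaves the B6 knockout group 1 mouse, assumed to vary like the other groups, so it is no check with replicates of that group. All other alternatives gave 15 to 30, with genes called higher under array weights (27 lower, 2 higher) and the Gapdh covariate (25 lower, 1 higher), and leaving out each mouse 14 to 27. The medians stayed negative, at -0.59 to -0.34 for mitosis and -0.23 to -0.08 for replication genes.

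Within strains, the replicate block called 21 in B6, 22 in BALB and 23 in NOD, and the pairing of BALB and NOD mice alone called 12, 13 and 9. Array weights called 15 in B6 and 17 in NOD, the code run as a block 4, 5 and 2, and a fit of the compared arrays only 4, 1 and 6. Without the 3 B6 arrays 1 was called in B6, with 1 knockout mouse left. The ranges over mice left out were 1 to 6 in B6, 1 to 15 in BALB and 1 to 2 in NOD. For strain differences of the effect, array weights called 2 and the replicate block 1.

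Strain differences could not be fitted with the replicate block. Among wild-type mice, BALB minus B6 had 0 with the code run as a block and 1 to 4 over mice left out. NOD minus B6 had 15 with array weights, 0 with the code run, 3 without the 3 B6 arrays and 2 to 11 over mice left out. NOD minus BALB had 2 with mean probe sets, 8 with array weights, 1 with the compared arrays only and 2 to 5 over mice left out. Among knockout mice, BALB minus B6 had 22 with array weights, 0 with the code run, 0 without the 3 B6 arrays and 0 to 9 over mice left out. NOD minus B6 had 5 with mean probe sets, 23 with array weights, 1 with the code run, 0 without the 3 B6 arrays and 2 to 11 over mice left out. NOD minus BALB had 1 with mean probe sets, 4 with array weights, 5 with the code run and 1 to 4 over mice left out. The causes were not tested.

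A filter on dim probe sets removed Cdc6, Kif20a, Mybl2, Tyms and Tk1, which have no value under it. No detection calls were used.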
